A study of Mus musculus with 8 samples.

Results

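A set of 10 genes of the Notch pathway was examined in mouse embryonic back skin, chosen by symbol from the gene table of the study: the receptor genes Notch1, Notch2 and Notch3, the ligand genes Jag1, Jag2 and Dll1, the glycosyltransferase gene Lfng, and the target genes Hes1, Hey1 and Nrarp. All 10 were found among the 20152 genes of the table. The skin came from embryos at E14.5, in mid-gestation, from 4 GNAQ R183Q samples and 4 wild-type samples, which the submitters describe as biologically independent and label with 1 batch. GNAQ encodes a Gq-class G protein alpha subunit, and R183Q is a substitution known from capillary malformations. No source used here states which cells made the changed protein, whether 1 or both alleles carried it, or what sex and litter each embryo had. The values are the authors' own comparison of the genotypes, made with DESeq2, giving for each gene its mean expression over all libraries, the log2 fold change with its p-value, set as GNAQ R183Q over wild type, and z-scores summarised per genotype by mean and by median. No value per library was used here, and the depth of each library is unknown.

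Notch signalling passes between touching cells. A ligand on one cell binds a receptor on its neighbour, the receptor is cut in its membrane, and the freed intracellular domain enters the nucleus, where it joins RBPJ and a Mastermind coactivator and switches on target genes. In the epidermis the pathway is known for committing basal keratinocytes to the spinous layer, where Krt1 and Krt10 replace the basal keratins Krt5 and Krt14. In vessels, the same receptors and ligands shape endothelial and mural cells, so RNA of whole back skin mixes several sources, and fewer cells of a type and less RNA per cell cannot be told apart.

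At a DESeq2 adjusted p of 0.05, 127 genes rose and 495 fell in GNAQ R183Q skin, and these 622 make up 3.09% of the genes tested. Among the 13786 genes of at least 1 CPM with a known length and GC content, the split was 191 higher and 396 lower after a trend on both was removed, while adjustment over all genes of at least 1 CPM alone gave 142 higher and 528 lower. Markers of skin cells were looked up at 1 CPM, the usual depth-scaled read count, or more. All 9 basal keratinocyte markers, all 8 fibroblast markers and all 10 endothelial markers on the lists used were present. So were all 8 muscle, 9 mural, 8 periderm and 6 Schwann markers, 5 of 7 melanocyte markers, and 14353 of all 20152 genes. Presence at this level therefore cannot single out the labelled tissue. The mean and median of 4 z-scores limit how far out a single library must lie. Among the 14353 genes of at least 1 CPM, the lowest of the 4 libraries had to lie at a z-score of -2 or below for 9 genes in the GNAQ R183Q group and for 238 genes in the wild-type group, or 0.0627% and 1.66% of them. The highest had to lie at 2 or above for 10 genes in the GNAQ R183Q group and for 71 in the wild-type group, or 0.0697% and 0.495%. Whether the same wild-type library lay far out each time is not known from these values, and no library could be left out.

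No gene of the 10 passed the test between genotypes. With the authors' DESeq2 test, 0 of 10 reached an adjusted p of 0.05, against 3.09% of all genes, and 1 of 10, Nrarp, had an unadjusted p under 0.05, against 14.2% of all genes. A linear model of log2 CPM, rebuilt from the mean z-scores, called 0 of the 10, but also 0.00% of all genes, and at an unadjusted p under 0.05 it held 0 of the 10, against 12.3% of all genes. An interval for each gene, implied by the authors' fold change and p together, shows how large a change these data leave room for. The implied 95% interval of every one of the 10 genes lay inside a 2-fold change in either direction, as it did for 87.4% of genes of at least 1 CPM, and for 7 of the 10 it lay inside a 1.5-fold change, against 55.7%. The lowest bound belonged to Nrarp, at 0.574 of the wild-type level, and the highest to Notch1, at 1.60 times that level. The median log2 fold change of the 10 genes was -0.02, beside 0.01 over all genes, and 3 values were positive and 7 negative.

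Levels between genes were compared per kilobase of transcript, as means over all 8 libraries of both genotypes. The order from the highest was Nrarp, Notch1, Hes1, Jag1, Notch3, Notch2, Jag2, Lfng, Dll1 and Hey1. Nrarp stood at an average expression of 701 per kilobase, Notch1 at 501 and Hes1 at 461. Hey1, at the other end, stood at 58.3 per kilobase, next to Dll1 at 66.2. Without a spread over libraries it is not known which neighbours in this order differ. Before division by length the 10 genes ranged from 5.28 CPM for Hey1 to 178 CPM for Notch1, so all were well above the level read as 1 CPM.

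**Figure D1:**
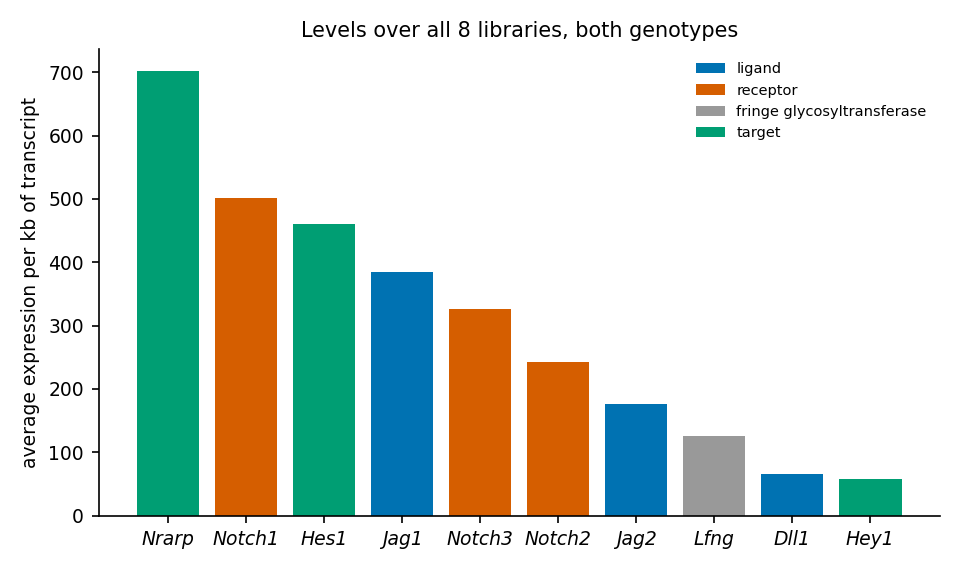
Average expression per kilobase of transcript (y axis, authors' normalized units divided by transcript length) for the 10 Notch genes (x axis), as 1 mean over all libraries of both genotypes, with no error available. Nrarp stands highest at 701 and Hey1 lowest at 58.3.

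Of the ligand genes, Jag1 encodes the Jagged ligand best known in the epidermis and in vessel walls. Its log2 fold change in the authors' deposited table was 0.16 (implied 95% interval -0.08 to 0.41), and the DESeq2 adjusted p was 0.578. In the authors' deposited table the mean z-score of Jag1 was 0.49 in GNAQ R183Q skin and -0.49 in wild-type skin, and the median was 0.57 in GNAQ R183Q skin and -0.15 in wild-type skin. Mean and median thus both lay higher in the mutant group. Yet no set of 8 z-scores with these summaries fully separates the genotypes, so their libraries overlapped. This and later statements on overlap take the z-scores to use the sample standard deviation. Jag2, a second Jagged ligand of basal keratinocytes, stood at a log2 fold change of -0.03 (implied 95% interval -0.59 to 0.53) with a DESeq2 adjusted p of 0.981, both based on the authors' deposited table. Its z-scores gave no single direction. The mean was 0.10 in GNAQ R183Q skin and -0.10 in wild-type skin, while the median was 0.22 in GNAQ R183Q skin and 0.28 in wild-type skin in the authors' deposited table. Dll1, a Delta-type ligand, stood at a log2 fold change of -0.01 (implied 95% interval -0.41 to 0.40) with a DESeq2 adjusted p of 0.995, both based on the authors' deposited table. The libraries of the 2 genotypes overlapped for Jag2 and Dll1 as well, and once a trend on transcript length and GC was taken out their log2 fold changes were 0.0522 and 0.0668.

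Of the receptor genes, Notch1 encodes the receptor whose loss in mouse epidermis is known to disturb differentiation. Its log2 fold change in the authors' deposited table was 0.30 (implied 95% interval -0.07 to 0.67), and the DESeq2 adjusted p was 0.482. In the authors' deposited table its mean z-score was 0.48 in GNAQ R183Q skin and -0.48 in wild-type skin, but the median was 0.49 in GNAQ R183Q skin and 0.10 in wild-type skin. These wild-type summaries require that the lowest wild-type library lay at a z-score of -2.23 or below. The gap between the genotypes was 0.97 in mean z-score and 0.40 in median z-score, and the part of the low wild-type library was not tested, since no library could be left out. Notch1 overlaps another annotated gene of the table, 0610009E02Rik, and no source used here gives the strand setting of the counting, so reads of the 2 could be shared.

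Notch2 and Notch3 showed even smaller differences. Notch2, a second receptor of the epidermis, stood at a log2 fold change of -0.01 (implied 95% interval -0.51 to 0.49) with a DESeq2 adjusted p of 0.995, both based on the authors' deposited table. Notch3, a receptor of mural cells and also a known Notch1 target in keratinocytes, stood at a log2 fold change of 0.01 (implied 95% interval -0.39 to 0.41) with a DESeq2 adjusted p of 0.991, both based on the authors' deposited table. For both receptors the mean z-score lay higher in the mutant group and the median lower. The mean of Notch3 was 0.12 in GNAQ R183Q skin and -0.12 in wild-type skin, and its median was 0.28 in GNAQ R183Q skin and 0.56 in wild-type skin in the authors' deposited table. The lowest wild-type library had to lie at or below -2.18 for Notch3 and -1.91 for Notch2. Notch3 overlaps the annotated gene Gm38585 of the table, with the same limit on its reads. Libraries of the 2 genotypes overlapped for Notch2 and Notch3.

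**Figure D2:**
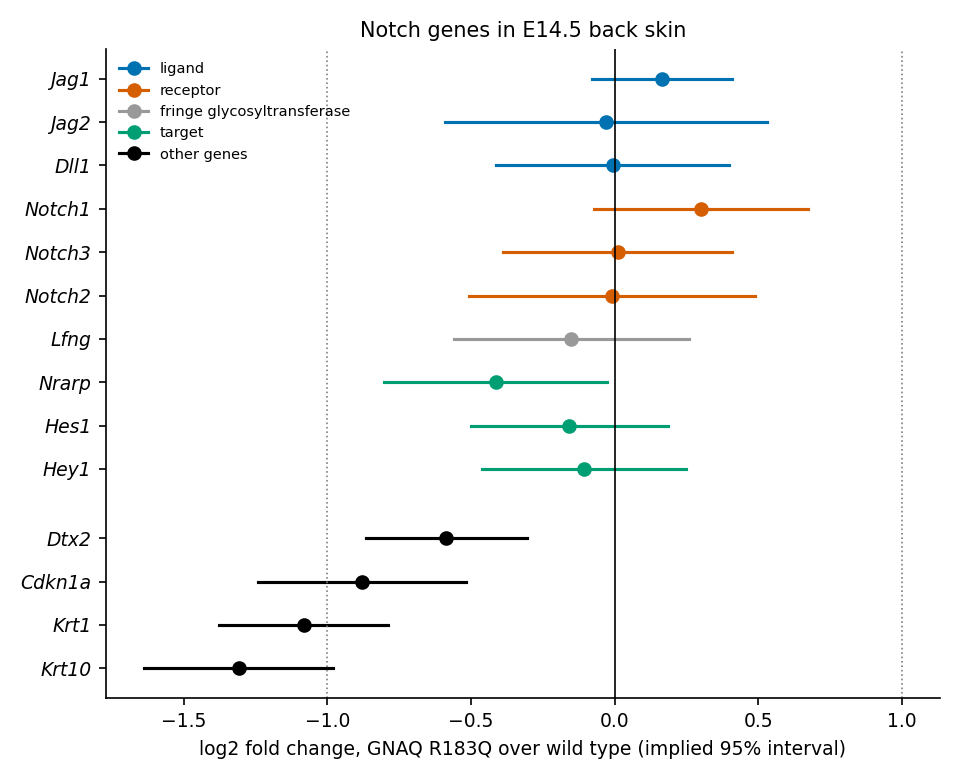
Log2 fold change, GNAQ R183Q against wild type (x axis), with the implied 95% interval (bars) for the 10 Notch genes by role, and below them Dtx2, Cdkn1a, Krt1 and Krt10; dotted lines mark a 2-fold change. Every Notch gene's interval lies between the dotted lines, and 9 of the 10 cross 0, while those of the 4 other genes lie below 0.

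Lfng encodes Lunatic fringe, which adds a sugar to the receptor and so changes which ligands it answers to. Its log2 fold change in the authors' deposited table was -0.15 (implied 95% interval -0.56 to 0.26), and the DESeq2 adjusted p was 0.799. The mean z-score of Lfng was -0.22 in GNAQ R183Q skin and 0.22 in wild-type skin in the authors' deposited table, while the median was 0.12 in GNAQ R183Q skin and 0.24 in wild-type skin. Here the lowest library of the mutant group had to lie at a z-score of -1.23 or below, and the genotypes overlapped. Once the trend on length and GC was taken out the log2 fold change of Lfng was 0.0489.

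The target genes are the readout of the pathway, and all 3 had negative log2 fold changes without passing the test, though once the trend on length and GC was taken out that of Hey1 was 0.0081, that of Hes1 -0.0069 and that of Nrarp -0.28. Nrarp, which encodes a short ankyrin-repeat protein that limits Notch signalling by binding the intracellular domain, had the smallest p of the 10. Its log2 fold change in the authors' deposited table was -0.41, or 0.751 of the wild-type level (implied 95% interval -0.80 to -0.03). That interval is for 1 gene alone, and over all genes the authors' DESeq2 adjusted p was 0.310. In the authors' deposited table the mean z-score of Nrarp was -0.55 in GNAQ R183Q skin and 0.55 in wild-type skin, and the median was -0.56 in GNAQ R183Q skin and 0.51 in wild-type skin. Mean and median agreed closely in both groups, and the summaries do not settle whether the libraries of Nrarp, or of Notch1, overlapped; for the other 8 genes they did, as for 77.2% of genes of at least 1 CPM.

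Hes1, a transcriptional repressor of the hairy and enhancer of split family found in spinous cells, stood at a log2 fold change of -0.16 (implied 95% interval -0.50 to 0.18) with a DESeq2 adjusted p of 0.733, both based on the authors' deposited table. Hey1, a related repressor best known from arteries, stood at a log2 fold change of -0.11 (implied 95% interval -0.46 to 0.25) with a DESeq2 adjusted p of 0.847, both based on the authors' deposited table. The mean z-score of Hes1 was -0.28 in GNAQ R183Q skin and 0.28 in wild-type skin, and that of Hey1 was -0.24 in GNAQ R183Q skin and 0.24 in wild-type skin in the authors' deposited table. For Hes1 the median of the wild-type group was 0.03, so its highest wild-type library lay at a z-score of 1.03 or above.

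**Figure D3:**
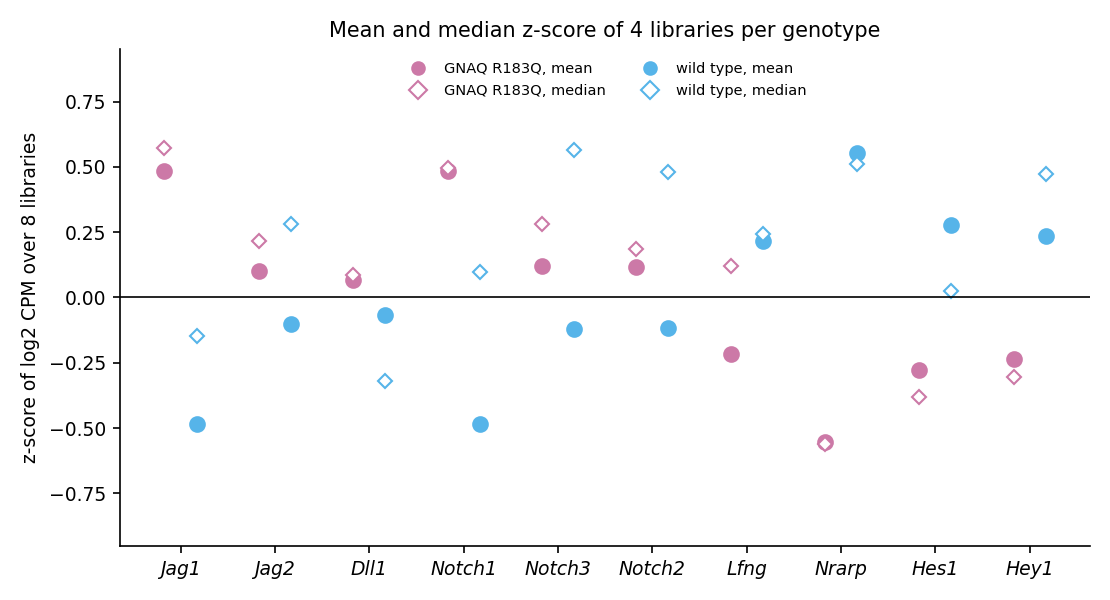
Mean (filled circle) and median (open diamond) z-score of log2 CPM over the 4 libraries of each genotype (y axis), GNAQ R183Q left and wild type right for each of the 10 Notch genes (x axis). In the wild-type group the median lies above 0 and the mean below it for Notch1, Notch2, Notch3 and Jag2; in the GNAQ R183Q group Lfng shows that pattern.

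Promoter windows from 250 bases before to 50 bases after the gene start were taken from RefSeq (build GRCm38.p6, not the authors' build) for 8 of the 10 genes, in 9 windows. Entries for Hes1 and Hey1 were not used. The letters GTGGGAA, the core bound by RBPJ, and CACGNG, letters bound by HES and HEY repressors among other factors, were searched on both strands, and the searches can overlap. The first was found in 1 of the 9 windows, that of Lfng, and in 6.38% of all 32851 windows. The second was found in 8 of the 9 windows, from 7 of the 8 genes, and in 27.5% of all windows. The 9 windows had a median GC content of 66.7%, against 52.7% for all. Notch1 had neither. The windows of Lfng, as the 1 gene with the RBPJ letters, and of Nrarp, as the gene of smallest p, are shown 5′ to 3′ with matches in capitals. Lfng is at chr5:140607091-140607390 on the plus strand and Nrarp at chr2:25180508-25180807 on the plus strand.
Lfng: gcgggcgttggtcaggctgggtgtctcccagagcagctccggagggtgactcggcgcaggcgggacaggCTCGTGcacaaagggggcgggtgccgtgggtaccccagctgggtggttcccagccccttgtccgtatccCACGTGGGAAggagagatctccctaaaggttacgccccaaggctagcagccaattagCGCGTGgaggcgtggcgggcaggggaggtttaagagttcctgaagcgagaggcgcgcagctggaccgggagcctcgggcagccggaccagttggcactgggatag
Nrarp: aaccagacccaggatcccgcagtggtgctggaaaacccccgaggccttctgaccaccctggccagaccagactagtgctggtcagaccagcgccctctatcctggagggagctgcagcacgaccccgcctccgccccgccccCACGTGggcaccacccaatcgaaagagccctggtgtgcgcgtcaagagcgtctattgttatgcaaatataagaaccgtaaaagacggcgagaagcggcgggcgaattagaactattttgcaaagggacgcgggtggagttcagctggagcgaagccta
In Lfng both searches meet in 1 run, in which CACGTG begins 112 bases and GTGGGAA 109 bases before the gene start. In Nrarp CACGTG begins 108 bases before it. These are matches of letters and say nothing of whether a factor was bound in this skin.

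Beyond the 10 genes, the machinery of the pathway was examined by lists of 93 genes, the 10 included, of which 91 were measured and the 2 others, Hes2 and Hes3, were not analysed here. Of the 91 genes 1 fell and 0 rose, against 2.46% falling and 0.630% rising among all genes, and the median log2 fold change was -0.03. At an unadjusted DESeq2 p of 0.05 there were 3 higher and 8 lower genes of the 91, against 5.94% higher and 8.23% lower among all genes. The implied interval lay inside a 2-fold change for 78 of the 91, against 12638 of all 20152 genes and 87.4% of genes of at least 1 CPM.

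The 1 that fell was Dtx2, which encodes a Deltex ubiquitin ligase that acts on the Notch receptor. Its log2 fold change in the authors' deposited table was -0.59 (implied 95% interval -0.87 to -0.30), and the DESeq2 adjusted p was 0.00320. The mean z-score of Dtx2 was -0.87 in GNAQ R183Q skin and 0.87 in wild-type skin in the authors' deposited table. With z-scores on the sample standard deviation, a mean past 0.810 requires that every library of 1 genotype exceeds every library of the other. The genotypes then did not overlap, as for 3.25% of genes of at least 1 CPM. Dtx2 lost its call once the trend on length and GC was taken out (log2 fold change -0.40, adjusted p = 0.0897). It also lost it in the rebuilt linear model (adjusted p = 0.105), which called 0 genes of all 20152. Of the other 11 genes of receptor turnover 0 passed.

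In the other machinery lists 0 genes passed the authors' DESeq2 threshold. The receptor list adds Notch4, an endothelial receptor chosen here after its value was seen, at 0.13 on the log2 scale of the authors' deposited table and with a wide implied interval, -0.65 to 0.90. Of 5 canonical ligands and 5 other ligands Jag1 and Egfl7 had the smallest p, and Egfl7, a secreted endothelial protein, stood at a log2 fold change of -0.19 (DESeq2 adjusted p = 0.632, from the authors' deposited table). Of 9 glycosylation genes the smallest p belonged to Poglut1, which adds O-glucose to the receptor, at a log2 fold change of 0.17 (DESeq2 adjusted p = 0.353, from the authors' deposited table). Among 10 genes of receptor cleavage 1 was higher and 2 lower at an unadjusted DESeq2 p of 0.05. Among all genes 5.94% were higher and 8.23% lower. The gamma-secretase subunit gene Aph1c had the smallest p there, at a log2 fold change of 0.66 (DESeq2 adjusted p = 0.184, from the authors' deposited table). Aph1b is a close copy of it, so reads of the 2 could be shared, which was not tested.

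Of 9 ligand endocytosis genes Neurl1b, a ubiquitin ligase gene, had the smallest p, at a log2 fold change of 0.43 (DESeq2 adjusted p = 0.286, from the authors' deposited table). Of 9 genes of the nuclear complex the smallest p belonged to the Mastermind gene Maml3, at a log2 fold change of -0.25 (DESeq2 adjusted p = 0.292, from the authors' deposited table). Rbpj itself, named after its value was seen, stood at 0.08 on the log2 scale of the authors' deposited table (implied 95% interval -0.17 to 0.32). Of 15 genes listed as corepressors, Kyat1, which encodes a kynurenine aminotransferase and stands on the list without a known corepressor role, had the smallest p, at a log2 fold change of -0.25 (DESeq2 adjusted p = 0.311, from the authors' deposited table).

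**Figure D4:**
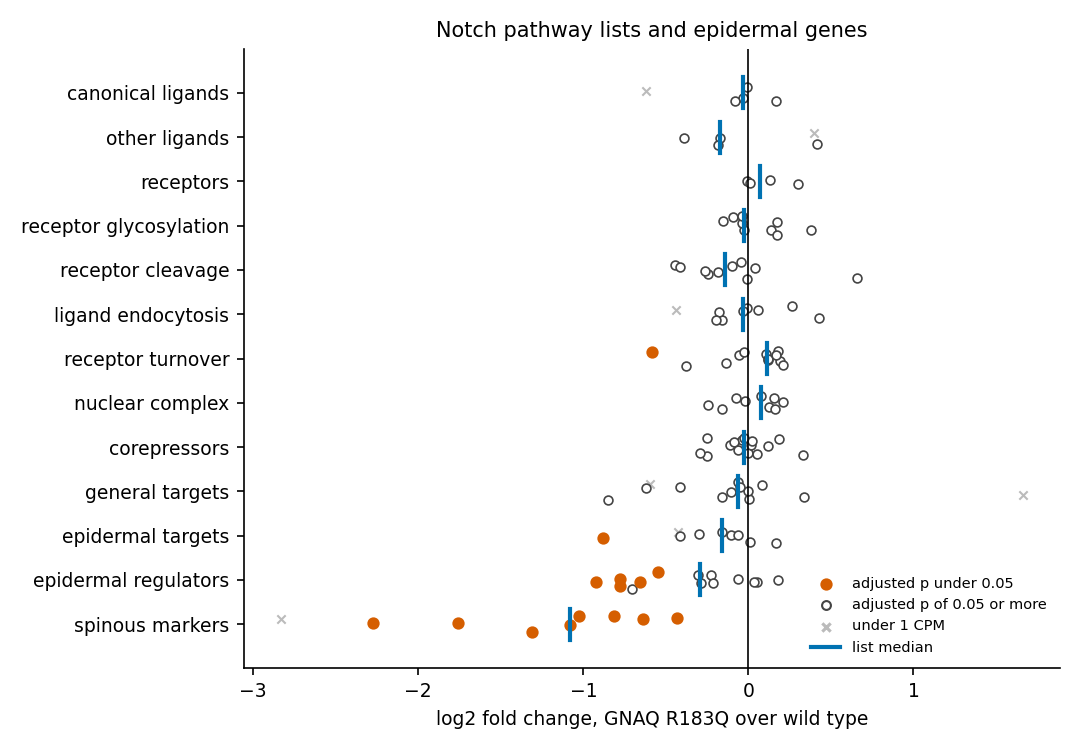
Log2 fold change, GNAQ R183Q against wild type (x axis), for each measured gene of the Notch lists and of 2 lists of epidermal genes (rows), with filled points for genes past an adjusted p of 0.05, crosses for genes under 1 CPM and a bar for the list median. In the Notch rows only Dtx2 and Cdkn1a are filled, against 5 epidermal regulators and 8 spinous markers, all left of 0.

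Genes reported as Notch targets, in general or in keratinocytes, numbered 18 measured genes. Of these 1 fell and 0 rose, against 2.46% falling and 0.630% rising among all genes. Their median log2 fold change was -0.08, with 12 negative values, beside 9871 negative values among all 20152 genes. The 1 that fell was Cdkn1a, which encodes the cell cycle inhibitor p21, a known Notch1 target in mouse keratinocytes that p53 also controls. Its log2 fold change in the authors' deposited table was -0.88 (implied 95% interval -1.24 to -0.52), and the DESeq2 adjusted p was 0.000227. With z-scores on the sample standard deviation its genotypes did not overlap. Id1, a gene that BMP signalling also switches on, had the smallest p among general targets, at a log2 fold change of -0.85 (DESeq2 adjusted p = 0.0870, from the authors' deposited table). The hairy family genes Hey2 and Heyl, named with their values known, stood at 0.09 and -0.06 on the log2 scale of the authors' deposited table. Hes5, Hes7 and Dll3, the first 2 targets and the last a ligand, stood at an average expression of 2.67 to 3.07 in the authors' deposited table, far below 1 CPM, where a change was not detectable with useful precision.

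Spinous genes, whose decrease was known when the lists were written, give the scale of the differences in the same libraries. Of 9 measured spinous markers 8 fell and 0 rose, against 2.46% falling and 0.630% rising among all genes. The median log2 fold change of these markers was -1.08. Krt77, Sbsn, Krt10 and Krt1 had the smallest p, and the authors' deposited table gives their log2 fold changes as -2.28, -1.76, -1.31 and -1.08. The implied intervals of Krt10, from -1.64 to -0.98, and of Krt1, from -1.38 to -0.79, did not reach those of Hes1 and Hey1. Nor did those of the called markers Krt77, Sbsn and Dsc1. Other called markers, named with their values known, overlapped both: Krtdap (-1.24 to -0.39), Dsg1a (-0.94 to -0.34) and Dsp (-0.69 to -0.17). The interval of Krt1 overlapped that of Nrarp, from -0.80 to -0.03. Of 14 epidermal regulators 5 fell and 0 rose, and those of smallest p were Klf4 at -0.78, Grhl1 at -0.78, Ovol1 at -0.92 and Zfp750 at -0.55 on the log2 scale of the authors' deposited table.

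Markers of cells that carry Notch genes are given beside these values, and their part in them was not tested. Among all genes 2.46% fell and 0.630% rose at the authors' DESeq2 threshold. At an unadjusted DESeq2 p of 0.05, 8.23% of all genes were lower and 5.94% higher. Of 9 basal markers 1 fell, Krt15 at -1.01, and the list median was 0.27. Of 8 periderm markers 3 fell, Ly6d at -1.64, Krt4 at -1.20 and Krt13 at -2.06, with a median of -1.04. Of 10 endothelial markers 0 passed the authors' DESeq2 threshold, also at an unadjusted p of 0.05, with a median of 0.04 and the smallest p for Cldn5 at -0.30. Of 9 mural markers, which include Notch3, 1 fell, Kcnj8 at -0.55, with a median of 0.11. Of 8 muscle markers 2 fell, Ckm at -1.50 and Tnnt3 at -0.76, with a median of -0.37. Fibroblast, melanocyte and Schwann lists of 8, 7 and 6 genes had 0 genes past the authors' DESeq2 threshold and 0, 0 and 1 lower at an unadjusted p of 0.05, with medians of -0.12, 0.30 and 0.08. Pdgfra had the smallest p of the fibroblast list, at 0.36, and Dct that of the melanocyte list, at 0.30. All these single-gene values are log2 fold changes of the authors' deposited table.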

How the data were processed

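RNA of back skin from 4 GNAQ R183Q and 4 wild-type embryo samples was purified with Trizol and RNeasy and made into stranded TruSeq libraries, per the labels' protocols. Build mm39 and the authors' tool DESeq2 come from the submitters' processing notes; the aligner, counter, annotation and model design are not stated in any source used. The deposited average expression is a signal over all libraries, per the file headers, and is read here as normalized counts, of which 26.8 units make 1 CPM. Per the file headers, the authors computed the log2 fold change, the p-value and its adjusted form. Z-scores are scores of log2 CPM that the authors deposited as group means and group medians. The deposited adjusted p-values equal a Benjamini-Hochberg adjustment of the raw ones over all 20152 genes.

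The threshold was an adjusted p of 0.05 over all genes. Planned for a table of counts was an edgeR test, which these values do not allow. The implied 95% interval is the log2 fold change ± 1.96 standard errors, each taken as the absolute log2 fold change over the normal quantile of p, which assumes a Wald test. A linear model of log2 CPM was rebuilt from the mean z-scores, with 6 residual degrees of freedom, taking z-scores to use the sample SD. The largest absolute mean, 0.924, lies under the limit of 0.935 for that SD, which does not exclude an SD with another divisor. Overlap of the genotypes was decided from the mean, the median and the fixed sum of squares of the z-scores. Overlap and the linear model both rest on the sample SD. These steps were tested on simulated data made with the sample SD. Transcript length and GC came from GENCODE vM21 by symbol, longest transcript, for 96.0% of genes of at least 1 CPM. The members and lists were chosen with earlier results of these data known. Genes were named by rule: the 10 members, every called gene of the pathway and target lists or else the smallest p, and up to 4 called genes per direction of the marker lists or else the smallest p. Some genes that the rule names are not reported here. Genes most like a member in pattern were not sought, since 2 genotype means allow no such measure. Python 3.11.15, scipy 1.17.1 and statsmodels 0.14.6 were used.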

Additional observations from a re-analysis of the deposited data

How the results depend on the processing

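The count of 0 called genes among the 10 stayed at 0 under all 7 alternatives, but most of these could hardly have changed it. Adjustment over genes of at least 1 or 10 CPM (8 of the 10 passing at 10 CPM) reused the same DESeq2 p-values. The smallest of these among the 10 was 0.0366, for Nrarp. Median centring took a median of only -0.0014 off each log2 fold change. Taking out the trend on length and GC changed the values more, and Nrarp then stood at an adjusted p of 0.562. The other 3 could add no call and say nothing of stability: a threshold of 0.01 and Benjamini-Yekutieli adjustment are stricter, and the rebuilt linear model called no gene at all. The rebuilt linear model called 0 of 20152 genes, with a lowest adjusted p of 0.0503 and 2481 genes at an unadjusted p of 0.05, and so gave 0 for the wider pathway, for the targets and for the spinous genes, of which 13 passed in the authors' DESeq2 test. With the length and GC trend taken out 0 pathway genes were called, Dtx2 being the 1 lost, for which the cause was not tested. Over all genes 622 calls became 386 at a threshold of 0.01 and 313 under Benjamini-Yekutieli adjustment. Directions of the smallest differences were not stable, and the cause was not tested. The difference in mean z-score, mutant minus wild type, was 0.24 for Notch2, 0.20 for Jag2 and 0.13 for Dll1, against log2 fold changes just below 0. The difference in median z-score was -0.28 for Notch3 and 0.41 for Dll1. With that trend taken out the log2 fold change was 0.0522 for Jag2, 0.0668 for Dll1, 0.0081 for Hey1 and 0.0489 for Lfng, so the negative sign shared by Hes1, Hey1 and Nrarp did not hold there. No paired analysis was possible because the table gives no value per library, and for the same reason no library was left out. Depth per library is unknown.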
